A study of Mus musculus with 12 samples.

Results

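The comparison described here set dendritic cells that lack the receptor DNGR-1 against wild-type cells at rest, without dead cells. It used the 3 arrays of untreated Clec9a gfp/gfp cells and the 3 arrays of untreated wild-type (WT) cells, which are 6 of the 12 arrays of the study, and all 23238 rows of each array. All samples carried the strain label C57BL/6. Bone marrow was cultured with Flt3 ligand (FLT3L) at 100 ng/ml for 10 days, and the CD24-high, CD11b-low, B220-negative CD8α+-like cells were sorted. The untreated groups are labelled 0 h. The other 6 arrays, 3 of each genotype, came from cells kept for 5 h with dead cells that had been irradiated with UVC at 240 mJ/cm2, and they serve here as a second set of arrays for the same genotypes. No group was kept for 5 h without dead cells. Dead cells and 5 h of culture therefore cannot be told apart, here or wherever levels with dead cells are set against untreated ones. The gfp allele is not limited to 1 cell type, so the other cells of the culture carried it too. Whether the 3 replicates of a group came from separate mice or cultures is not stated, so the p-values measure the spread between these samples, which may be technical.

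CD8α+-like dendritic cells are the culture counterpart of the conventional type 1 dendritic cell (cDC1), which takes up dead cells and presents their antigens to cytotoxic T cells. DNGR-1 is the product of Clec9a. It recognises actin filaments uncovered when a cell's membrane breaks, and signals through the tyrosine kinase Syk. Clec9a lies in a run of C-type lectin genes on mouse chromosome 6, with Clec7a, which encodes the fungal β-glucan receptor Dectin-1, as a close neighbour.

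The 250 bases before the annotated start of Clec9a and of Clec7a are shown because these genes had the 2 largest differences among the rows that passed the test, and lie close together on 1 chromosome. They come from RefSeq on GRCm38.p6, and for Clec7a the first of 2 listed starts was used. Capitals mark a match to the motif GAGGAA, the core of sites for the myeloid factor PU.1, on either strand. The Clec9a stretch is chr6:129408612-129408861 on the plus strand and the Clec7a stretch is chr6:129472780-129473029 on the minus strand.
Clec9a: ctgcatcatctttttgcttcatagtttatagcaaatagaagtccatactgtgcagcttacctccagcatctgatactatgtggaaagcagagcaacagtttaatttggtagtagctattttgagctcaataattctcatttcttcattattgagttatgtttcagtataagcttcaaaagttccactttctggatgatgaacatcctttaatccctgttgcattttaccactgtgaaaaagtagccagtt
Clec7a: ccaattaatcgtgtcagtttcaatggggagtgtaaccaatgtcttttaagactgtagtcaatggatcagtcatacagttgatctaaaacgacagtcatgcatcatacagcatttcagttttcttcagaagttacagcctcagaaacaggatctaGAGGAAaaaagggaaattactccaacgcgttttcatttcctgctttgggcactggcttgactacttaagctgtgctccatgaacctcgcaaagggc
The Clec7a stretch held 1 GAGGAA, which starts 96 bases before the start site and is not shared by the Clec9a stretch. The motif was found in 23.3% of 32851 promoter stretches of the same length. Neither stretch held CACGTG (found in 6.02% of the promoters), TTCNNNGAA (7.02%) or TGANTCA (6.75%), each searched on both strands, and a match or its lack in this window says nothing of what binds there.

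Clec9a, the disrupted gene, had intensities of 2646, 2648 and 2581 on the WT arrays and of 4.16, 0.00864 and 3.88 on the Clec9a gfp/gfp arrays. The groups were far apart, and the label of each untreated array matched its Clec9a level. On the log2(intensity + 16) scale used throughout, the difference (Clec9a gfp/gfp minus WT) was -7.15 ± 0.11 (SE, n = 3 against 3), and the adjusted p was 9.87e-11. All adjusted p-values are from limma with Benjamini-Hochberg adjustment over 23238 rows, and a row is termed called at an adjusted p under 0.05. The offset of 16 bounds how low a value can go and so understates differences of dim rows.

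Few other rows passed the test in the absence of dead cells. With Clec9a, 7 rows were called (0.0301% of 23238), of which 6 were higher in Clec9a gfp/gfp cells (0.0258%) and 1, Clec9a itself, was lower (0.0043%). The 5 called genes with a single symbol that were higher were Clec7a, Cd274, Bhlhe40, Csf2rb and Fgr. The sixth higher row is assigned to several genes and is not named. It measured 878, 828 and 1046 in WT and 1695, 1631 and 1751 in Clec9a gfp/gfp cells, with a difference of 0.88 ± 0.10 (SE).

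**Figure D1:**
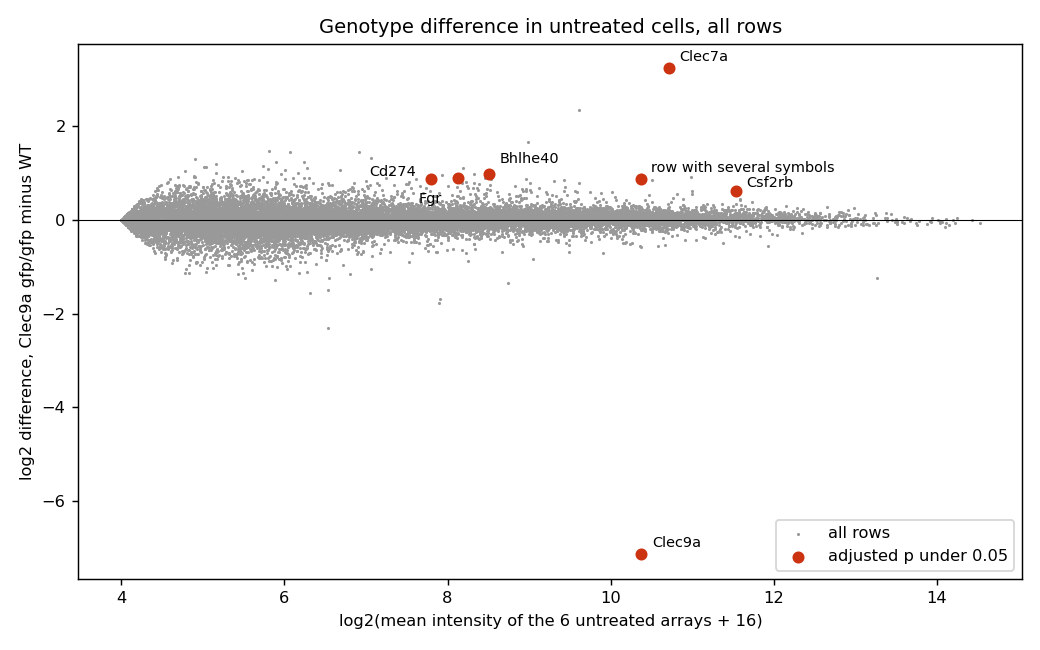
Genotype difference of every row in untreated cells (vertical axis, log2 units, Clec9a gfp/gfp minus WT) against its mean level over the 6 untreated arrays (horizontal axis, log2 of intensity + 16). Grey points are the 23238 rows and red points the 7 called rows, of which Clec9a at -7.15 and Clec7a at 3.24 lie farthest from 0.

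The Clec7a intensities were 266, 311 and 327 on the WT arrays and 3338, 2314 and 3409 on the Clec9a gfp/gfp arrays. The lowest Clec9a gfp/gfp array, replicate 2, was still well above the highest WT array. Mean intensity was thus 301 in WT and 3020 in Clec9a gfp/gfp cells, and the difference was 3.24 ± 0.15 (SE), with a limma adjusted p of 4.04e-06. In the cells kept with dead cells, Clec7a measured 525, 449 and 463 in WT and 1099, 1045 and 1104 in Clec9a gfp/gfp cells. The groups did not overlap there either, and the difference was 1.15, with an unadjusted p of 9.75e-06 and a limma adjusted p of 0.0614. The gap between the genotypes was smaller with dead cells, and the difference of differences (with dead cells minus untreated) was -2.09 (limma adjusted p 0.0219, 0.0043% of rows called). That adjusted p passed 0.05 in 2 of 12 fits that each left out 1 array and ranged from 0.00111 to 0.132 over them, while the estimate stayed between -2.27 and -1.99. It was lost without any of the 3 WT untreated arrays, without Clec9a gfp/gfp untreated replicates 1 and 3, without any of the 3 Clec9a gfp/gfp arrays with dead cells, and without WT dead cells replicates 1 and 3.

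Cd274 encodes PD-L1, a ligand that restrains T cells. It measured 138, 131 and 155 in WT and 280, 285 and 249 in Clec9a gfp/gfp cells. No arrays overlapped, and the difference was 0.87 ± 0.09 (SE, limma adjusted p 0.0121). With dead cells its level was far higher, at 6276, 5848 and 6227 in WT and 6673, 6285 and 6091 in Clec9a gfp/gfp cells, and these groups overlapped, with a difference of 0.05.

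Bhlhe40, a transcriptional repressor of the basic helix-loop-helix family, measured 250, 232 and 202 in WT and 425, 519 and 457 in Clec9a gfp/gfp cells. Every Clec9a gfp/gfp array lay above every WT array, by 0.99 ± 0.11 (SE, limma adjusted p 0.0124). With dead cells the mean level was 3724 in WT and 3966 in Clec9a gfp/gfp cells, a difference of 0.09.

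Csf2rb encodes the signalling chain shared by the receptors for GM-CSF, IL-3 and IL-5. It measured 2395, 2269 and 2271 in WT and 3447, 3749 and 3558 in Clec9a gfp/gfp cells. These groups were also apart, with a difference of 0.63 ± 0.07 (SE, limma adjusted p 0.021). With dead cells the means were 9570 and 9732, and the difference was 0.02.

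Fgr, a Src family tyrosine kinase of myeloid cells, measured 210, 182 and 150 in WT and 362, 353 and 331 in Clec9a gfp/gfp cells. The groups did not overlap, and the difference was 0.90 ± 0.12 (SE, limma adjusted p 0.0418). Its levels were lower with dead cells, at 105, 110 and 88.5 in WT and 132, 131 and 132 in Clec9a gfp/gfp cells. The difference there was 0.34, with an unadjusted p of 0.0147.

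**Figure D2:**
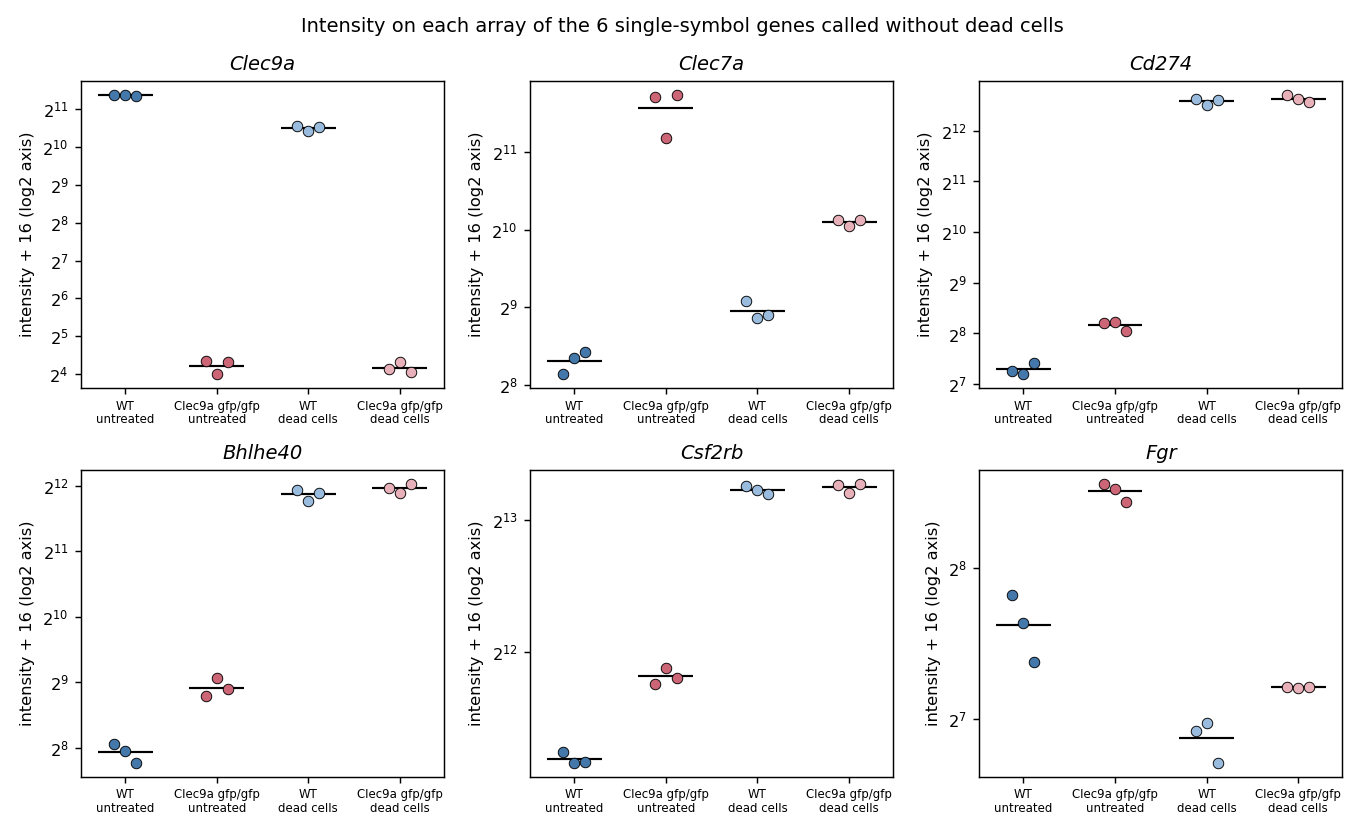
Intensity + 16 on a log2 axis for the 6 single-symbol genes called in untreated cells. Each point is 1 array, each line is the mean of the 3 arrays of a group, and the untreated genotypes do not overlap for any of the 6 genes, whereas Cd274, Bhlhe40 and Csf2rb overlap or lie close together with dead cells.

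The calls of Cd274, Bhlhe40, Csf2rb and Fgr depended on the fit. On the 6 untreated arrays alone, which leave fewer degrees of freedom, the limma adjusted p was 0.243 for Cd274, 0.286 for Bhlhe40, 0.328 for Csf2rb and 0.450 for Fgr, so that none of these was called. Fgr was also not called with plain log2 (0.0811), a pseudocount of 1 (0.0880) or quantile normalization (0.0871). Clec9a and Clec7a were called in each of the 12 fits that left out 1 array. Cd274 was called in 8 of them (limma adjusted p 0.0201 to 0.0776), and its call was lost without untreated replicate 1 or 2 of either genotype. Bhlhe40 was also called in 8 (0.0231 to 0.0773), and its call was lost without untreated replicate 2 or 3 of either genotype. Csf2rb (0.0356 to 0.170) and Fgr (0.0367 to 0.241) were called in 2 each. Csf2rb kept its call without WT dead cells replicate 2 or 3, and Fgr without WT dead cells replicate 3 or WT untreated replicate 1. The count of higher rows fell to between 1 and 3 without any 1 of the 6 untreated arrays or of the 3 Clec9a gfp/gfp arrays with dead cells.

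Most rows were measured closely enough to bound a change. The median SE of a difference was 0.147, and the 95% interval excluded a 2-fold change for 90.0% of all rows and for 97.2% of the 11528 rows with a mean untreated intensity of at least 100. A difference of 2-fold or more was estimated for 49 rows. Of these, 31 had a mean intensity under 64 and 2 were called. The median difference over all rows was 0.0038.

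The small p-values leaned towards rows higher in Clec9a gfp/gfp cells. At an unadjusted p under 0.001, 43 rows were higher (0.185%) and 3 were lower (0.0129%). Without the called rows these counts were 37 and 2, whereas at an unadjusted p under 0.05 all rows, called ones included, gave 613 (2.64%) and 431 (1.85%). The largest falls with groups apart, other than Clec9a, had unadjusted p-values of 0.0263 to 0.029. They were the olfactory receptor genes Olfr690 (-1.24), Olfr1394 (-0.96) and Olfr535 (-0.79) and the growth factor gene Gdf5 (-1.14). All were dim, and for Gdf5 the WT arrays measured 66.8, 71.7 and 94.3 and the Clec9a gfp/gfp arrays 56.5, 0.0126 and 48.5, so that replicate 2 stood apart from the others of its group. The same array was near 0 for Olfr690 (15.3, 0.0085 and 9.28) and Olfr1394 (22.1, 0.0103 and 13.8). The WT level of Olfr690 rested on 1 array, at 116, 18.5 and 21.0. Slc15a2, a peptide transporter, was among the 5 largest rises with groups apart (1.23, unadjusted p 0.0759), at 35.2, 21.8 and 5.78 in WT and 72.7, 63.1 and 61.8 in Clec9a gfp/gfp cells. With dead cells it measured 368, 142 and 28.2 in WT (mean 179) and 589, 953 and 525 in Clec9a gfp/gfp cells (mean 689). The WT arrays thus lay far from each other, and the unadjusted p was 0.00397 (limma adjusted p 0.715, not called).

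The 20 genes with the next smallest p-values all had higher values in Clec9a gfp/gfp cells, with groups that did not overlap. Over all rows, the groups were apart on the higher side for 6.57% and on the lower for 4.71%. None of the 20 was called (limma adjusted p 0.0706 to 0.231). They were chosen by their p on these arrays, which favours groups apart, so their untreated values are a description. Several belong to immune signalling. Stat4, the transcription factor activated by IL-12, measured 200, 208 and 178 in WT and 307, 360 and 386 in Clec9a gfp/gfp cells, a difference of 0.79. Tnip3, which binds the NF-kB inhibitor A20, had a mean of 246 in WT and 368 in Clec9a gfp/gfp cells. Traf1, an adaptor of TNF family receptors, had means of 332 and 498. The values of Clec9a gfp/gfp arrays lay above those of all WT arrays for each of these genes.

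Surface receptors made up another group of the 20. Cd84, a homophilic receptor of the SLAM family, measured 1084, 1236 and 1105 in WT and 1738, 1630 and 1640 in Clec9a gfp/gfp cells, a difference of 0.54. Pecam1, the adhesion molecule CD31, measured 300.3, 232 and 241 in WT and 449.8, 399 and 482 in Clec9a gfp/gfp cells, a difference of 0.75. F11r, the junctional adhesion molecule JAM-A, and Cdh23, a cadherin, had differences of 0.75 and 0.48. Timd4, a receptor for phosphatidylserine on dead cells, measured 161, 145 and 136 in WT and 276, 214 and 249 in Clec9a gfp/gfp cells, a difference of 0.68. Ptger3, a receptor for prostaglandin E2, and P2rx5, an ATP-gated channel, had differences of 0.70 and 0.81.

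Among the rest were genes of the actin cytoskeleton, metabolism and cell survival. Scin encodes scinderin, which severs actin filaments, and measured 207, 180 and 166 in WT and 354, 360 and 343 in Clec9a gfp/gfp cells, a difference of 0.88. Fscn1, the actin-bundling protein fascin of mature dendritic cells, measured 610, 519 and 537 in WT and 787, 1240 and 919 in Clec9a gfp/gfp cells. Tcn2, which carries vitamin B12, had means of 1596 in WT and 2458 in Clec9a gfp/gfp cells. Bcl2l11, the pro-apoptotic protein Bim, had a difference of 0.65. Rgs9, a regulator of G protein signalling, had a difference of 0.74. The others were Ndnf, a secreted factor (1.01), Cables1, an adaptor of cyclin-dependent kinases (0.97), Slc16a14, a transporter of the monocarboxylate family (0.69), St8sia1, a sialyltransferase (0.50), and Phc2, a Polycomb protein (0.38). A second, dimmer row of St8sia1 had a difference of 1.33 with an unadjusted p of 0.117.

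The genotypes were also compared on the arrays with dead cells, whose values do not enter the untreated difference itself. They do enter the spread estimate behind the p that chose the genes. Genes with close values on these arrays were thus favoured, and the counts of small p-values and of groups apart below are a description. Of the 25 genes (the 5 called and the next 20), 23 had higher values in Clec9a gfp/gfp cells there, against 49% of the 14807 single-symbol genes. Of the 25, 14 had an unadjusted p under 0.05 in that direction, against 2.50% of all these genes. The groups did not overlap for 15 of the 25, against 4.36% of all these genes. A fit on the 6 arrays with dead cells alone also gave 14 of 25, against 1.69% of all genes, but it does not undo that choice of genes. None of the 25 was called there (limma adjusted p 0.0614 to 0.997), where Clec9a was the single called row (0.0043%), at -6.35.

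The 25 genes differed in how far the difference was seen with dead cells. The 14 with an unadjusted p under 0.05 were Clec7a, Fgr, Stat4, Rgs9, Scin, Cables1, Cd84, F11r, St8sia1, Ptger3, Pecam1, Cdh23, Tcn2 and Fscn1, and their median difference was 0.75 untreated and 0.58 with dead cells. Cd84 measured 147, 154 and 154 in WT and 243, 244 and 282 in Clec9a gfp/gfp cells with dead cells, a difference of 0.70. Its level was far lower than in untreated cells, yet the groups remained apart. Tcn2 measured 431, 447 and 495 against 721, 818 and 603, a difference of 0.62 in each treatment.

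The other 11 genes were Cd274, Bhlhe40, Csf2rb, Ndnf, Tnip3, Slc16a14, P2rx5, Traf1, Bcl2l11, Timd4 and Phc2. Their median difference was 0.68 untreated and 0.05 with dead cells, where it ranged from -0.08 to 0.16. Tnip3 measured 8617, 7570 and 7277 in WT and 7646, 7895 and 8229 in Clec9a gfp/gfp cells with dead cells, far above its untreated levels and with overlapping groups. Slc16a14 was lower with dead cells, at 99.1, 94.7 and 97.0 in WT and 118, 89.5 and 91.8 in Clec9a gfp/gfp cells. Only for Clec7a was the difference between the treatments itself called, and for the 11 genes its adjusted p in limma was 0.375 or higher, so the division into 14 and 11 describes these arrays and is not a tested difference. Over all single-symbol genes the genotype differences of the treatments, which share no arrays, had a Pearson r of 0.205 and a Spearman rho of 0.0646, and without Clec9a and Clec7a the r was 0.115. These points share the arrays and are no independent replicates.

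**Figure D3:**
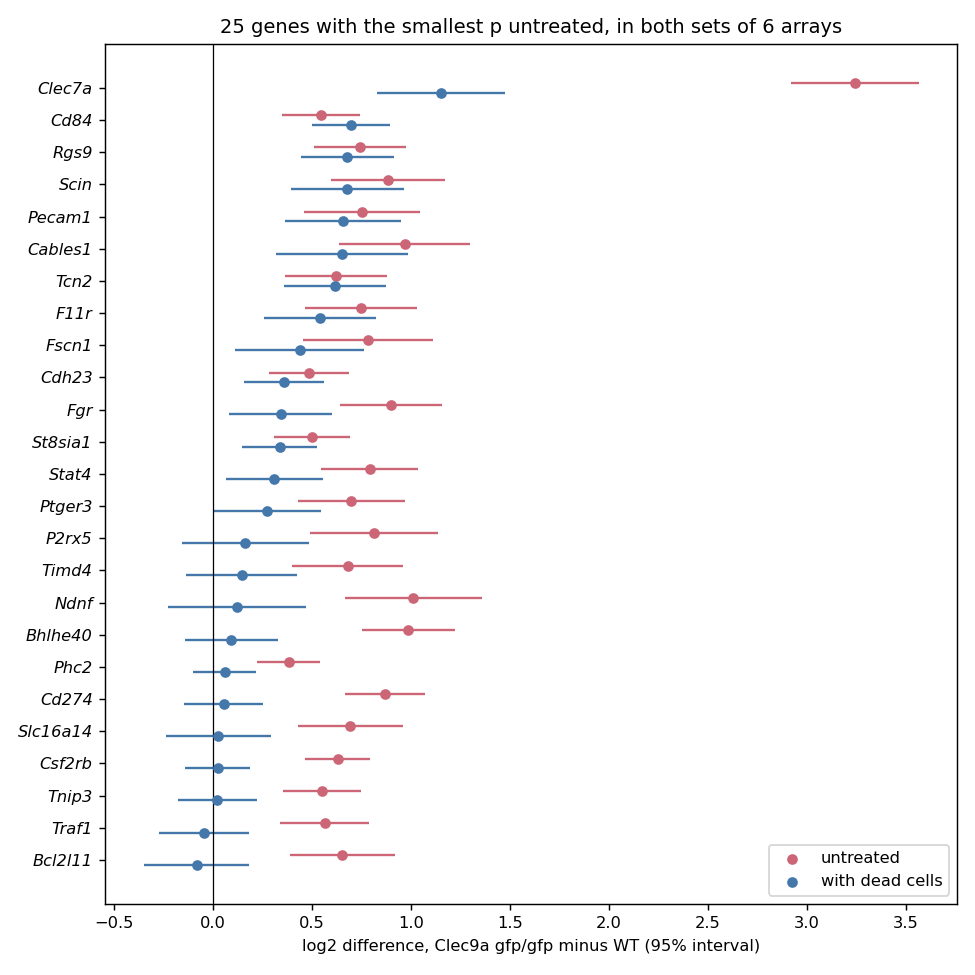
Genotype difference (log2, Clec9a gfp/gfp minus WT) with its 95% interval for the 25 genes with the smallest p in untreated cells, Clec9a left out. Red marks untreated cells and blue cells kept with dead cells, ordered by the difference with dead cells, where 23 of 25 lie above 0.

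The neighbourhood of Clec9a was examined because Clec7a lies in it. All Clec9a gfp/gfp samples both lack DNGR-1 and carry the altered locus with any DNA linked to it. Their parts in a genotype difference, that of Clec7a included, cannot be told apart here and were not tested. How far the line was backcrossed is not stated. In the RefSeq gene order the measured genes on either side were Clec1b, which encodes the platelet receptor CLEC-2, and Clec1a, which encodes a lectin for fungal melanin. Clec7a followed Clec1a, and then came Olr1, a receptor for oxidised lipoprotein. Clec1b had a difference of -0.02 and Clec1a one of -0.23, and neither passed the test. Olr1 had a difference of -0.08. Clec12a, an inhibitory lectin on the other side, measured 1204, 1368 and 1502 in WT and 1168, 917 and 1281 in Clec9a gfp/gfp cells, so that the groups overlapped. Gabarapl1, an autophagy gene 4 measured genes from Clec9a, measured 324, 358 and 372.5 in WT and 489, 403 and 491 in Clec9a gfp/gfp cells, a difference of 0.37 with an unadjusted p of 0.0095.

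Within 10 measured genes on each side, 2 of 20 had an unadjusted p under 0.05, Clec7a and Gabarapl1, both higher. Within 50 on each side, 9 of 100 were higher and 1 was lower at such a p, against 2.71% and 1.45% of single-symbol genes. On the chromosome as a whole, 4.14% of 822 genes had such a p in either direction, against 4.16% of the genes on other chromosomes. Of the 25 genes with the smallest p, 5 lie on it (Clec7a, Bhlhe40, Ndnf, Tnip3 and St8sia1), and 5.57% of all placed genes do.

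**Figure D4:**
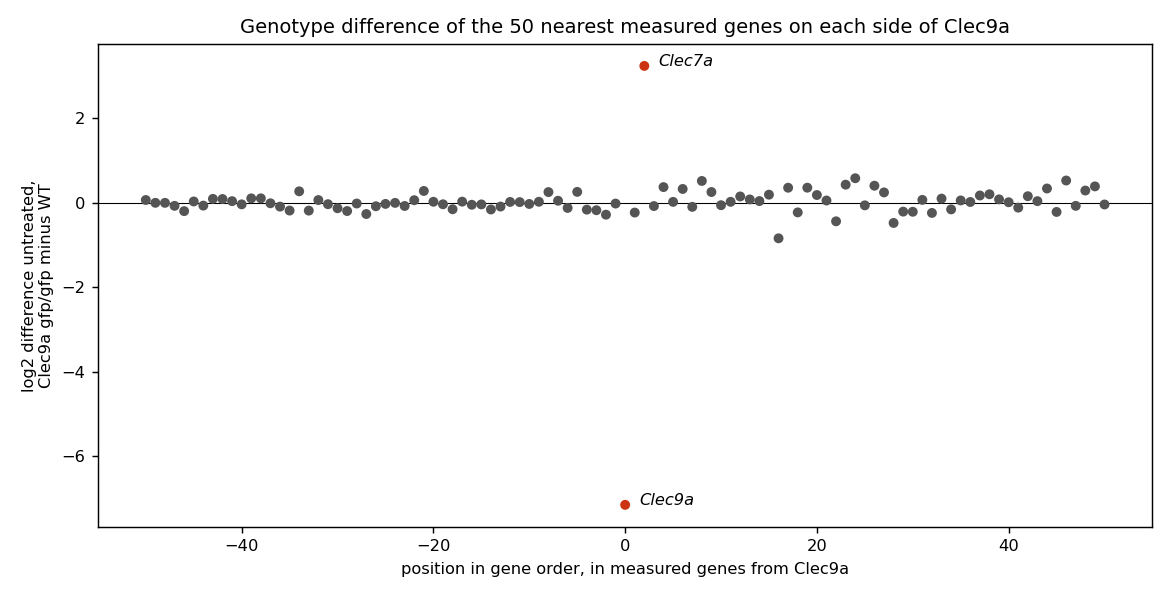
Genotype difference in untreated cells (log2, Clec9a gfp/gfp minus WT) for the 50 measured genes on each side of Clec9a, by position in RefSeq gene order. Clec9a and Clec7a are red, and apart from them the values lie between -0.84 and 0.58.

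The sorted cells of both genotypes carried genes that define cDC1, next to markers of other cells that are given further below. Xcr1, the receptor for the chemokine XCL1, measured 3601, 3220 and 3187 in WT and 3357, 2932 and 3699 in Clec9a gfp/gfp cells. Irf8, the transcription factor on which these cells depend, measured 9056, 9075 and 8335 against 8185, 8580 and 8892. Their differences were -0.01 (95% interval -0.23 to 0.22) and -0.04 (-0.28 to 0.19), so a change as large as 2-fold lay outside the interval for each. Flt3, the receptor for the culture's cytokine, had a difference of 0.06 (-0.17 to 0.28), and Zbtb46, a transcription factor of conventional dendritic cells, one of -0.08 (-0.30 to 0.13). Syk had a difference of 0.20 (-0.04 to 0.44).

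The surface markers of the sort could be read in part. Itgam, which encodes CD11b, measured 1108, 1502 and 875 in WT and 1336, 1750 and 1544 in Clec9a gfp/gfp cells, with overlapping groups and a difference of 0.43 (unadjusted p 0.04). Ptprc, whose B220 isoform the sort excluded, had a difference of -0.01 (95% interval -0.25 to 0.23), and the arrays' rows do not separate isoforms. Cd24a and Batf3 had no row with a single symbol and are not reported.

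Of the 25 measured cDC1 markers, Clec9a was the single one called, 2 had an unadjusted p under 0.05 on the higher side (2.71% of single-symbol genes) and 2, with Clec9a, on the lower (1.45%), and their median difference was -0.06. Only 6 of the 25 had a difference above 0, and the groups were apart on the lower side for 6, Clec9a included, and on the higher side for 1, against 4.71% and 6.57% of all rows. Itgae, the integrin chain CD103, measured 2909, 2355 and 2501 in WT and 4103, 3463 and 3069 in Clec9a gfp/gfp cells, a difference of 0.45. Plet1, a lipid-anchored surface protein, measured 456, 102 and 151 in WT and 1817, 1676 and 377 in Clec9a gfp/gfp cells. Its groups overlapped, and its difference of 2.35 ± 0.67 (SE) was not called. Tlr3, the receptor for double-stranded RNA, measured 4716, 4443 and 4123 in WT and 3476, 3289 and 4052 in Clec9a gfp/gfp cells, groups apart by a difference of -0.30 (unadjusted p 0.0579). Cd36, a scavenger receptor that binds dead cells, measured 1029, 1082 and 1398 against 602, 662 and 875, a difference of -0.71 (unadjusted p 0.0175). None of these passed the adjusted threshold.

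Genes of dendritic cell maturation had the most members on the higher side of the 32 lists examined. Maturation is the change to high costimulation and migration towards lymph nodes. Of its 36 measured genes, Cd274 was called, 15 had an unadjusted p under 0.05 on the higher side and 0 on the lower, against 2.71% and 1.45% of single-symbol genes. The median difference was 0.21, against 0.0062 over all single-symbol genes. The groups did not overlap on the higher side for 17, against 6.57% of all rows. Ccr7, the receptor that guides mature cells to lymph nodes, measured 562, 539 and 452 in WT and 564, 936 and 984 in Clec9a gfp/gfp cells. Clec9a gfp/gfp replicate 1 was thus at the level of the highest WT array, and the difference was 0.63 ± 0.18 (SE, limma adjusted p 0.903).

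The mean of log2(intensity + 16) over the maturation genes was 8.04 to 8.09 on the WT arrays and 8.23 to 8.36 on the Clec9a gfp/gfp arrays. With dead cells it was 10.90 to 11.09 in WT and 10.97 to 11.05 in Clec9a gfp/gfp cells, and the median difference of the genes was 0.01. The count of 15 fell to 8 without Clec9a gfp/gfp untreated replicate 2 and to 9 without WT untreated replicate 3, and lay between 10 and 15 without any other array. The list and the single genes were described with earlier results of these data known, so the count is not independent evidence of a direction.

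Cytokine receptors and signalling genes showed smaller medians. The counts that follow are at an unadjusted p under 0.05, which 2.71% of single-symbol genes passed on the higher side and 1.45% on the lower. Of 29 measured haematopoietic cytokine receptors, Csf2rb was called, 5 were higher and 0 were lower, with a median of 0.09. The groups were apart for 8 of them on the higher side and 0 on the lower, against 6.57% and 4.71% of all rows. Il1r2, the decoy receptor for IL-1, measured 1425, 1473 and 1404 in WT and 2049, 1916 and 2390 in Clec9a gfp/gfp cells, a difference of 0.55 with groups apart (limma adjusted p 0.244). Il21r had a difference of 0.43. Of 30 genes of the Syk pathway and Src family kinases, Fgr was called and 2 were higher, with Fgr among them. Differences were above 0 for 25 of the 30, and the groups were apart for 8 on the higher side and 1 on the lower. Among 15 STAT5 targets 2 were higher and 0 lower, and among 26 transcription factors of dendritic cells 4 were higher and 0 lower, with Runx3, a factor that restrains dendritic cell maturation, at 0.41.

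Inflammatory and interferon genes were mixed. Of 42 NF-kB subunits, inhibitors and targets, 4 were higher and 4 were lower at an unadjusted p under 0.05, while 28 had a difference above 0, the median was 0.07, and the groups were apart for 8 on the higher side and 4 on the lower, against 6.57% and 4.71% of all rows. Of 29 interferon-stimulated genes 0 were higher and 1 was lower, Cxcl10, a chemokine for activated T cells, at 685, 606 and 745 in WT and 413, 612 and 465 in Clec9a gfp/gfp cells. Of 34 receptors and bridging molecules for dead cells, 5 were higher, among them Timd4 and the integrin chain Itgb3 (0.48), and 1, Cd36, was lower. For 21 genes of S phase and 25 of G2 and M phase no member had an unadjusted p under 0.05, and none was called by limma, with medians of -0.07 and -0.10. Most of their differences were nonetheless on the lower side, with 6 of the 21 and 2 of the 25 above 0.

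**Figure D5:**
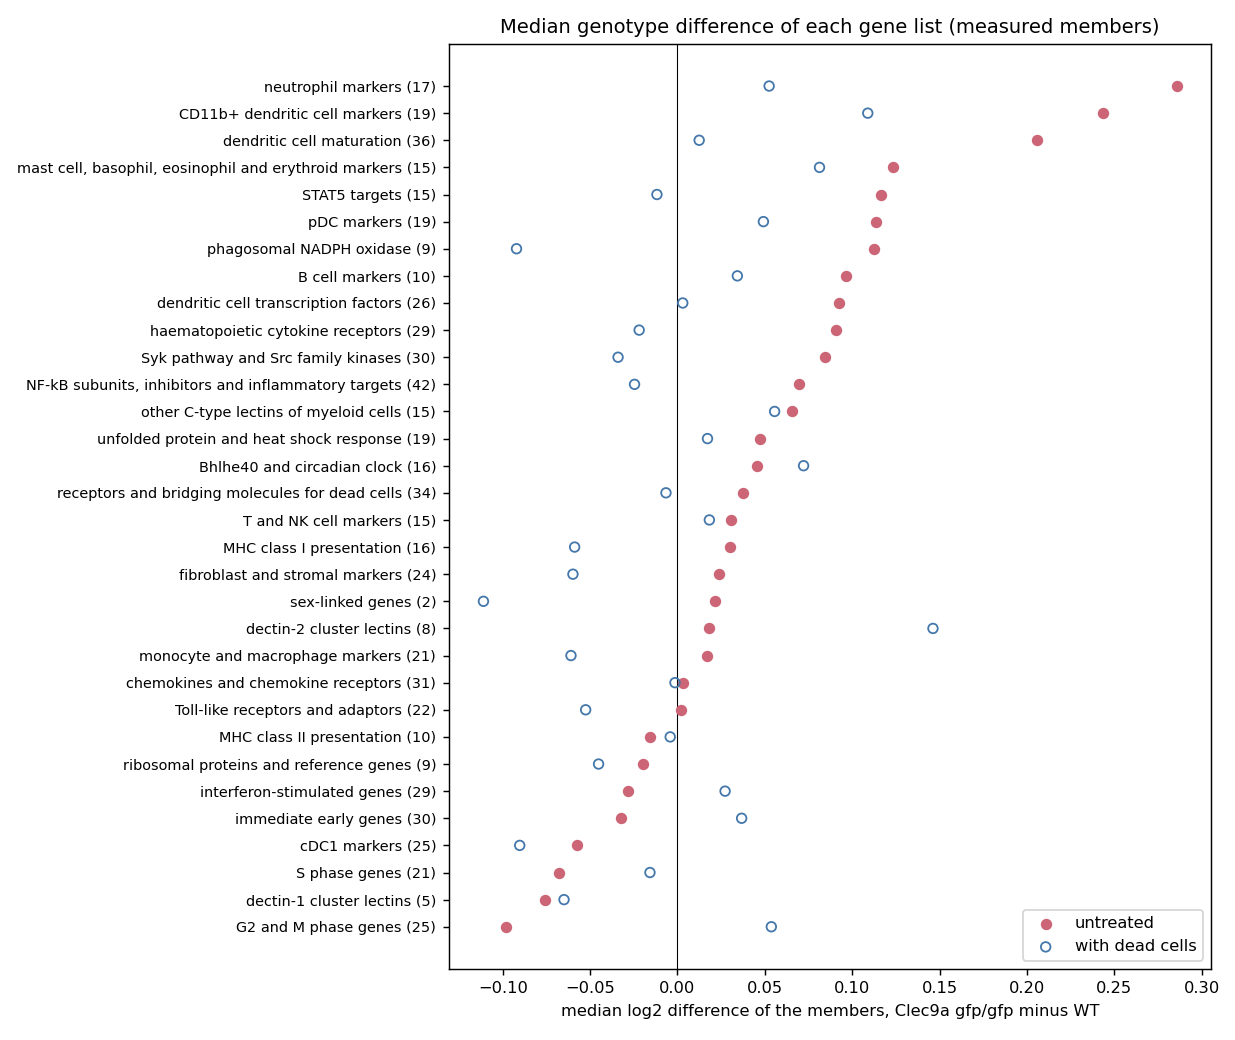
Median genotype difference (log2, Clec9a gfp/gfp minus WT) of the measured members of each of 32 gene lists, with the number of members in parentheses. Filled points are untreated cells and open points cells kept with dead cells. The untreated medians run from -0.10 for genes of G2 and M phase to 0.29 for neutrophil markers, and maturation genes lie at 0.21 untreated and 0.01 with dead cells.

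Markers of other cells were also read on these arrays, since a sort can carry them over. Of 19 CD11b+ dendritic cell markers, 3 were higher and 2 lower at an unadjusted p under 0.05, against 2.71% and 1.45% of single-symbol genes. Differences were above 0 for 14 of the 19. The groups were apart for 3 on the higher side and 2 on the lower, against 6.57% and 4.71% of all rows. The median was 0.24, and the summed intensity was 10266 to 13294 in WT and 12043 to 14185 in Clec9a gfp/gfp cells. S100a4, a calcium-binding protein in this list, measured 121, 129 and 98.7 in WT and 185, 190 and 183 in Clec9a gfp/gfp cells, a difference of 0.62 (limma adjusted p 0.445). Ccr2, a chemokine receptor of the same list, went the other way, at 1192, 1405 and 2120 against 968, 1034 and 1091. Cd209a, a defining lectin of these cells, measured 533, 615 and 317 against 879, 1330 and 399, with overlapping groups, and 1 member of the list, Clec4a4, had a mean under 16.

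Neutrophil markers had a median of 0.29, with 1 of 17 higher and 0 lower at an unadjusted p under 0.05, against 2.71% and 1.45% of single-symbol genes. No groups were apart, and these markers had a sum of 8611 to 14615 in WT and 2254 to 21801 in Clec9a gfp/gfp cells. Their spread lay within the Clec9a gfp/gfp group. S100a8, a neutrophil protein singled out after its values were seen, measured 12552, 9330 and 7174 in WT and 10247, 310.2 and 19200.1 in Clec9a gfp/gfp cells. Replicate 2 of the Clec9a gfp/gfp group was thus far below the other 5 untreated arrays, while the 6 arrays with dead cells measured 234 to 379. It also had the lowest quality weight of the 12 arrays (0.495) and the largest share of rows below 16 (15.2%).

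The sums of the other marker lists overlapped between the genotypes. They were 10225 to 11711 in WT and 10473 to 11752 in Clec9a gfp/gfp cells for 19 markers of plasmacytoid dendritic cells, and 27084 to 37686 and 31674 to 33315 for 21 markers of monocytes and macrophages. For 10 B cell markers they were 1007 to 1815 and 1017 to 1973, with Rag2 under 16, and for 15 T and NK cell markers 2731 to 2761 and 2700 to 3087. Mast cell, basophil, eosinophil and erythroid markers summed to 1342 to 2464 and 1746 to 2442 over 15 genes, and fibroblast and stromal markers to 25161 to 30500 and 24479 to 32945 over 24. Of these lists, 2 plasmacytoid, 1 B cell, 3 T and NK cell, 1 mast cell, basophil, eosinophil or erythroid and 1 stromal marker were higher at an unadjusted p under 0.05, and 1 monocyte marker was lower, against 2.71% and 1.45% of single-symbol genes. Differences were above 0 for 14 of 19 plasmacytoid, 14 of 21 monocyte and macrophage, 8 of 10 B cell and 9 of 15 T and NK cell markers. They were above 0 for 14 of 15 mast cell, basophil, eosinophil and erythroid markers and 13 of 24 stromal markers. Siglech, a defining receptor of plasmacytoid cells, had a difference of 0.34, and Cd3g, a chain of the T cell receptor complex, one of 0.86 at means of 17.3 and 43.8. The mean log2(intensity + 16) of monocyte and macrophage markers in WT was 9.45 to 9.92 untreated and 6.98 to 7.09 with dead cells. For stromal markers it was 8.71 to 9.03 and 6.91 to 7.51. Plasmacytoid markers went the other way, at 8.11 to 8.27 and 8.32 to 8.40. Of single markers, C1qa had WT means of 2090 untreated and 117 with dead cells, and Csf1r of 1457 and 79.8. The part of these markers in the differences of the maturation genes and of the called genes was not tested, and in bulk samples fewer cells of a type and less RNA per cell cannot be told apart.

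Median intensities of the untreated arrays were 93.6 to 101, and Pearson correlations of log2(intensity + 16) were 0.986 among the WT arrays, 0.977 to 0.987 among the Clec9a gfp/gfp arrays and 0.976 to 0.987 between the genotypes. The Y-linked genes Eif2s3y and Kdm5d had means of 948 and 330 in WT and 980 and 332 in Clec9a gfp/gfp cells, with differences of 0.03 and 0.01. An array has no read depth, and the number of arrays limits the precision of all rows.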

How the data were processed

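The study holds 12 Affymetrix arrays, 3 in each of 4 groups, and the 6 untreated arrays form the comparison. The authors deposited a linear intensity per row and array. Per the labels' protocols, RNA was purified on columns and whole-transcript sense targets were labelled with biotin. Per the submitters' processing notes, mm8 was the build. How the deposited intensity was summarised and normalized, and with which software, is not stated in the sources used here, and could shift levels and folds. Neither scan date nor detection calls were used, so no batch could be tested.

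Rows were named from the platform's annotation, with symbols updated by gene ID to RefSeq of GRCm38.p6. Of 23238 rows, 14939 had 1 symbol, covering 14807 genes, 989 had several and 7310 were not in the table. For a gene with several rows, the brightest row on average was taken. RefSeq gave gene order and promoter sequences. No other coordinates are printed.

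Intensities were set to log2(value + 16). Because a pseudocount of 16 was used, differences of dim rows are understated. A linear model with a mean per group was fitted to all 12 arrays in limma 3.58.1 under R 4.3.3, with two-sided moderated tests (lmFit, eBayes). The smallest p that permuting 3 against 3 arrays can give is 0.1, so limma's p-values are printed. The members and the gene lists were chosen with earlier results of these data known. The rule for named genes took Clec9a, each called single-symbol gene, the 20 with the next smallest p, the 5 largest rises and falls with groups apart, up to 4 members per list, a panel of sort and identity genes, the 5 nearest measured genes on each side of Clec9a, and genes called in the other contrasts.

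The test was checked on simulated data with 200 of 23238 rows changed in the untreated genotype comparison, where it recovered 8%, 70.5% and 93.5% of changes of 0.5, 1 and 2 on the log2 scale. It made 0, 6 and 13 false calls there. So many changed rows make the adjustment more lenient than in the real comparison, with its 7 called rows. Recovery in the real data may thus be lower than these shares. Alternatives were other pseudocounts, quantile normalization, a shift to 1 median, removal of dim rows, 1 row per gene, trended or robust eBayes, array weights, fits on 6 arrays, a replicate block and leaving out each array.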

Additional observations from a re-analysis of the deposited data

Results flagged for a closer look

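The genotype difference of Clec7a, the Dectin-1 gene, was not the same in untreated cells at 0 h and in cells kept for 5 h with dead cells. Without a group kept for 5 h alone, dead cells and time cannot be told apart. It was 3.24 in untreated cells and 1.15 with dead cells, and the difference between them, with dead cells minus untreated, was -2.09 (limma adjusted p 0.0219, n = 3 arrays in each of 4 groups). Every Clec9a gfp/gfp array was higher than every WT array of the same treatment. Among the other settings the estimate ran from -2.44 to -1.98 and was called in 10 of 12, the main setting included. The exceptions were a pseudocount of 1, with an adjusted p of 0.0639, and the replicate block, with 0.0933. When 1 array was left out it was called in 2 of 12 fits.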

How the results depend on the processing

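The count of rows higher in untreated Clec9a gfp/gfp cells, 6 as reported, was 11 with a pseudocount of 64, 12 with 1 row per gene, 11 with trended eBayes, 19 with array weights and 1 on the 6 untreated arrays alone. It ranged from 1 to 8 when 1 array was left out. The count of lower rows, 1 as reported, was 2 with plain log2 and 2 with array weights, and 1 to 2 when 1 array was left out. Plain log2 lost the call of Clec9a itself (adjusted p 0.214). With dead cells the count of called rows, 1 as reported, was 0 with plain log2, 2 with a pseudocount of 1, 5 with a pseudocount of 64, 3 with quantile normalization, 3 with arrays shifted to 1 median, 5 without the dimmest 25% of rows, 5 with 1 row per gene and 4 with trended eBayes, and 1 to 3 when 1 array was left out. The difference between the treatments was called for 2 rows with plain log2, 0 with a pseudocount of 1, 2 with a pseudocount of 64 and 2 with trended eBayes, against 1 as reported, and for 0 to 2 rows when 1 array was left out. The count of maturation genes higher at an unadjusted p under 0.05 was 8 to 15 when 1 array was left out, an alternative chosen after seeing the data. The causes were not tested, except that 1 row per gene tests fewer rows and the fit on 6 arrays has fewer samples. Whether replicate numbers pair the samples is not stated. Same-numbered arrays had correlated deviations above 0.1 in 2 of 18 pairs (r -0.164 to 0.133), and differently numbered arrays had an r of -0.135 to 0.176. These values gave no sign of a pairing but cannot exclude one. With the replicate number as a replicate block, 2 rows were called higher untreated and 0 rows were called for the difference between treatments, and Cd274 (adjusted p 0.0570), Bhlhe40 (0.0685), Csf2rb (0.111) and Fgr (0.0570) were not called. Of 64 named genes, 6 changed sign under some setting, and none of them was called. With array weights Clec1b was at 0.028, Olr1 at 0.063, Xcr1 at 0.035 and Ptprc at 0.040, and quantile normalization put Clec1b at 0.015. When 1 array was left out, Clec1a ranged from -0.47 to 0.060, Clec1b from -0.084 to 0.046, Olr1 from -0.26 to 0.073, Xcr1 from -0.086 to 0.081, Ptprc from -0.080 to 0.099 and Flt3 from -0.00841 to 0.13. Over 1532 values of named genes under the alternatives, 1440 kept direction and call, 40 lost the call and 38 gained it, and 20 of 768 list medians moved by more than the spread between arrays and 41 changed sign. The number of arrays limits small differences: a change of 0.5 on the log2 scale was recovered in 8% of the changed rows of a simulation. That simulation changed 200 rows at once, so recovery in the real data may be lower.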
